A study of Mus musculus with 76 samples.

Results

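Polycomb repressive complex 2 (PRC2) is the enzyme complex that methylates lysine 27 of histone H3, a mark of silenced developmental genes. The 10 genes described here are the catalytic subunits Ezh2 and Ezh1, the core subunits Eed, Suz12 and Rbbp4, and the accessory proteins Phf1, Mtf2, Phf19, Jarid2 and Aebp2. The rule lists them by name, although the choice was made with earlier results of these data known, and all 10 were found among the 38924 genes of the count table. PRC2 needs a catalytic subunit, Eed, which binds the methylated histone, and Suz12, the scaffold, while the accessory proteins steer the complex to chromatin. Phf1, Mtf2 and Phf19 are the Polycomb-like proteins, and Jarid2 and Aebp2 form the alternative accessory set. In neural development Ezh2 is known from dividing progenitors, and Ezh1 is the form that remains in cells that have left the cell cycle.

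Embryonic stem cells of the laboratory strain C57BL/6J (B6) and of WSB/EiJ (WSB), a strain derived from wild mice, were taken through neural differentiation in culture. RNA was sequenced at the stage of neural progenitor cells (NPC), at neuronal maturation, and at an axon stage at which axons were left uncut or had been cut (axotomy). At each stage some cultures received ID-8, which inhibits the kinase Dyrk1a, and the others served as controls. This gave 16 groups and 70 libraries. The 4 NPC groups held 6 libraries each and the 4 maturation groups 4 each. The 8 axon groups held 4 each, except that uncut WSB cultures under ID-8 and cut B6 cultures under ID-8 held 3. In the deposited table replicates 1 and 2 of each maturation group have culture names with neuron, and replicates 3 and 4 names with exp1012. The 4 libraries of such a group may thus not be independent of each other. No group carried an engineered allele, and the labels do not say how many stem cell lines stood behind a strain. The p-values therefore measure the spread between these libraries, which may be technical.

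Library totals, in units of 1000000 expected counts, ran from 20.37 to 131.5 with a median of 37.4, and levels are given as counts per 1000000 of that total (CPM). No gene on the lists of 8 neuronal and 8 neural progenitor markers was at 0 in an NPC, maturation or uncut axon control group. The summed neuronal level of control cultures was 1716.2 to 4833.0 CPM at the NPC stage, 1935.8 to 2965.0 at maturation and 2663.1 to 6447.6 in uncut axon cultures, so that the maturation range lay within the NPC range. A list of 6 astrocyte genes summed to 109.8 to 245.1 CPM at the NPC stage, 531.6 to 4145.3 at maturation and 1224.4 to 12192.9 in uncut axon cultures. Replicate 3 of axon WSB ID-8 cut went against its strain label. On 127 genes whose levels at the NPC and maturation stages parted the strains by more than 1 on the log2 scale, it lay nearer to B6 in all 127. Its median position was 1.01 on a scale from 0 (the WSB mean) to 1 (the B6 mean), where the 35 B6 libraries lay at 0.96 to 1.01 and the other 34 WSB libraries at -0.05 to 0.13, each placed on genes chosen without it. It held 58.5 CPM of Aebp2, against 27.8 to 33.8 in the rest of its group and 54.0 to 61.4 in cut B6 cultures under ID-8. Its summed level of 6 fibroblast genes was 7386.9 CPM, against 53.6 to 2761.2 in the rest of its group. It is named below as the library labelled WSB ID-8 cut replicate 3, and it entered each fit that holds axon cultures. Without it 1 member call of those edgeR fits changed, with no culture block, that of Eed between the strains in cut cultures.

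The promoters of 4 members are printed because their RNA followed the contrasting courses described below: Ezh2 and Suz12 were far higher at the NPC stage, Ezh1 was not, and Phf19 differed between the strains. Each run holds the 250 bases before the annotated start and the first 30 after it, 5′ to 3′ on the strand of the gene, from RefSeq on GRCm38.p6. Both strands were searched in windows that run 250 bases before and 50 after the start. Capitals mark letters of the E2F motif (TTTCCCGC, TTTGGCGC or TTTCGCGC) or of the cell cycle homology region, CHR (TTTGAA or TTCGAA), and the E2F and CHR letters do not overlap in these runs. The Ezh2 window is chr6:47595001-47595280 (minus strand), that of Suz12 chr11:79992856-79993135 (plus), that of Phf19 chr2:34913947-34914226 (minus) and that of Ezh1 chr11:101226434-101226713 (minus).
Ezh2: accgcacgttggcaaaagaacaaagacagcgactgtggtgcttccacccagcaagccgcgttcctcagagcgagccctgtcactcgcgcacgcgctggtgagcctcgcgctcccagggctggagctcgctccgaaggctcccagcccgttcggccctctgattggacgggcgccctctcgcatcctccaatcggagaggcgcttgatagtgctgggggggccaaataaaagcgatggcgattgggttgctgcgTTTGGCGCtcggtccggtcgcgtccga
Suz12: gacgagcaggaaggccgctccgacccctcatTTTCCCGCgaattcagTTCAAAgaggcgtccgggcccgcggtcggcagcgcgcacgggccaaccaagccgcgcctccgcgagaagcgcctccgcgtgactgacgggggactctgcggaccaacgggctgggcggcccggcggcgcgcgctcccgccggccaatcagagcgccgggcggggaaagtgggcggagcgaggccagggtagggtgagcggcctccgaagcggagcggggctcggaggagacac
Phf19: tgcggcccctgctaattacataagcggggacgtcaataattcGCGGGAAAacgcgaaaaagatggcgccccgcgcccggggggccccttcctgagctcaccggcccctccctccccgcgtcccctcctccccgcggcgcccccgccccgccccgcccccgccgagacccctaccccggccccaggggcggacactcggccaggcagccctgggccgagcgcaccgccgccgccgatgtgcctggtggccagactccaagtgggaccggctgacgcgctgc
Ezh1: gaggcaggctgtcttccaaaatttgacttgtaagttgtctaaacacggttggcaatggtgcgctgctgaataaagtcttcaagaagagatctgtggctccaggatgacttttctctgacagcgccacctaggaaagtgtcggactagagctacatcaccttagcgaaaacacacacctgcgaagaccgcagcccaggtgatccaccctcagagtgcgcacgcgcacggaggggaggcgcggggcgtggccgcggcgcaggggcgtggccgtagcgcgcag

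E2F letters were found in the windows of Ezh2 (first base at 4 after the start), Suz12 (-219) and Phf19 (-208). Of 32851 promoter windows of the same length, over all genes with such a window, 1.84% hold such letters, and no other member does among the 14 windows of the 10 genes. CHR letters lay in the windows of Suz12 and Eed and in 1 window each of Mtf2 and Aebp2, against 19.23% of all windows. CCAAT, the other motif searched, lay in 37.41% of all windows, and 3 times each in that of Ezh2 and in 1 of Mtf2. Of the 14 windows 5 hold none of the 3 motifs, those of Ezh1 and Phf1, 2 of Aebp2 and 1 of Mtf2, and both windows of Jarid2 hold CCAAT alone. These matches describe letters in a window, and no binding was measured.

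The catalytic subunits exchanged rank between the stages. Ezh2 (ENSMUSG00000029687, chr6:47530139-47595341, minus strand of GRCm38) ranged 40.82-fold between group means, from 5.51 CPM in B6 ID-8 maturation cultures to 224.9 CPM in WSB ID-8 progenitors. Ezh1 (ENSMUSG00000006920, chr11:101191115-101226463, minus strand) ranged 2.43-fold, from 17.7 CPM in WSB ID-8 progenitors to 43.0 in B6 ID-8 progenitors. No library of any later stage reached the lowest NPC library for Ezh2, since the 24 NPC libraries held 134.5 to 253.1 CPM, the 30 axon libraries 8.33 to 42.5 and the 16 maturation libraries 4.08 to 11.3. For Ezh1 the 3 ranges overlapped, at 15.7 to 82.3, 20.3 to 34.9 and 24.3 to 45.6 CPM.

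**Figure D1:**
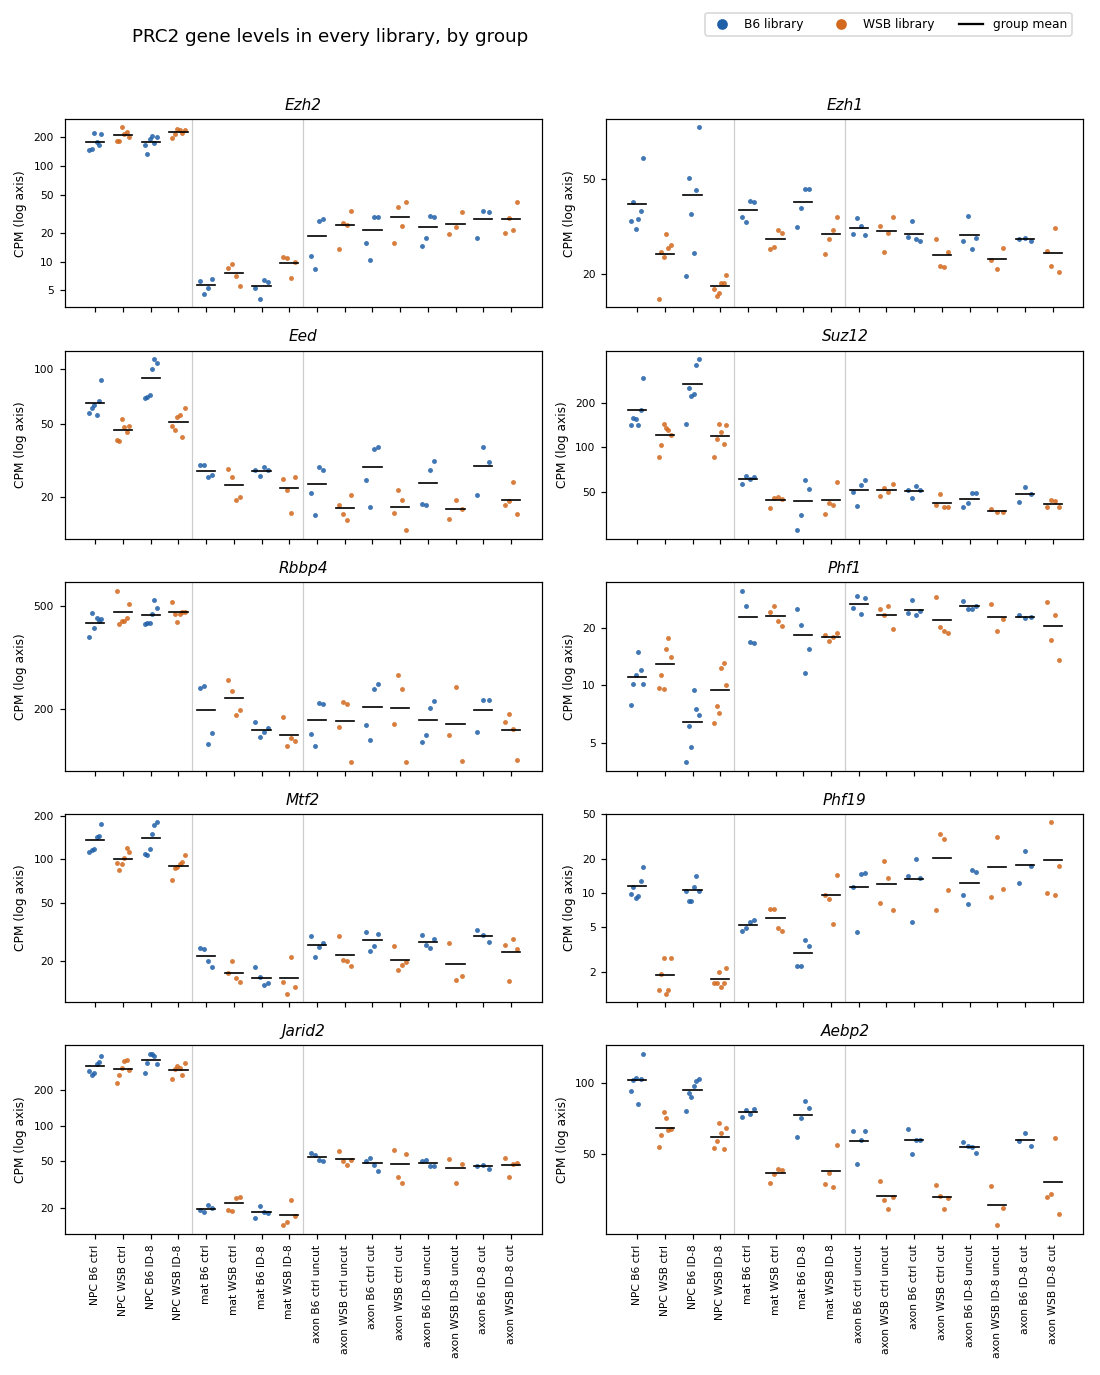
Level of each PRC2 gene in each of the 70 libraries, in CPM on a log axis, by group (mat, maturation; ctrl, control). Points are libraries (blue B6, orange WSB), bars are group means, and grey lines part the 3 stages. Ezh2, Jarid2 and Mtf2 lie far higher in every NPC library than in any later library, whereas Ezh1 does not.

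Stage was compared within 1 library block, a range of library numbers in the labels, for the axon and NPC stages. In that block control B6 progenitors held 176.5, 167.0 and 217.8 CPM of Ezh2, and uncut B6 axon cultures held 11.5, 8.33, 26.8 and 28.0. WSB progenitors held 216.2, 227.8 and 202.6 CPM, and uncut WSB axon cultures 13.7, 25.1 and 24.3. Every axon culture was thus far below every progenitor culture, although the 4 B6 axon cultures formed a low and a high pair. The log2 difference, axon minus NPC, was -3.31 ± 0.36 (SE) in B6 (edgeR quasi-likelihood test, adjusted p = 1.09e-08) and -3.32 ± 0.40 in WSB (adjusted p = 8.95e-08). The difference of the strains was -0.00 ± 0.51 and was not called. In these bulk samples fewer cells of a type and less RNA per cell cannot be told apart.

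Ezh1 was not called in either strain. In the same block it read 33.9, 36.8 and 61.3 CPM in B6 progenitors against 29.4, 34.3, 31.6 and 29.0 in B6 axon cultures, and 29.3, 25.6 and 26.3 in WSB progenitors against 31.8, 24.8 and 29.7 in WSB axon cultures. The groups overlapped in both strains. Its log2 differences were -0.47 ± 0.26 (adjusted p = 0.119) and 0.14 ± 0.28 (adjusted p = 0.704). Without B6 NPC replicate 4 the first became -0.70 with an adjusted p of 0.0387.

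The log2 ratio of Ezh1 to Ezh2 CPM within a library does not depend on how libraries are scaled. In control cultures it was -2.21 ± 0.37 (SD, n = 6) in B6 and -3.14 ± 0.29 (n = 6) in WSB progenitors, 0.92 ± 0.95 and 0.37 ± 0.58 (n = 4 each) in uncut axon cultures, and 2.71 ± 0.22 and 1.89 ± 0.46 (n = 4 each) at maturation. All 24 NPC libraries lay below 0, with a highest value of -1.28, and all 16 maturation libraries lay above 0, with a lowest value of 1.1. The axon libraries lay on both sides, from -1.07 to 2.04. With the exon lengths of 6678 bases for Ezh2 and 7440 for Ezh1, levels per kilobase were likewise reversed: 26.9 CPM per kb of Ezh2 and 5.29 of Ezh1 in control B6 progenitors, against 0.853 and 4.97 at B6 maturation.

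**Figure D2:**
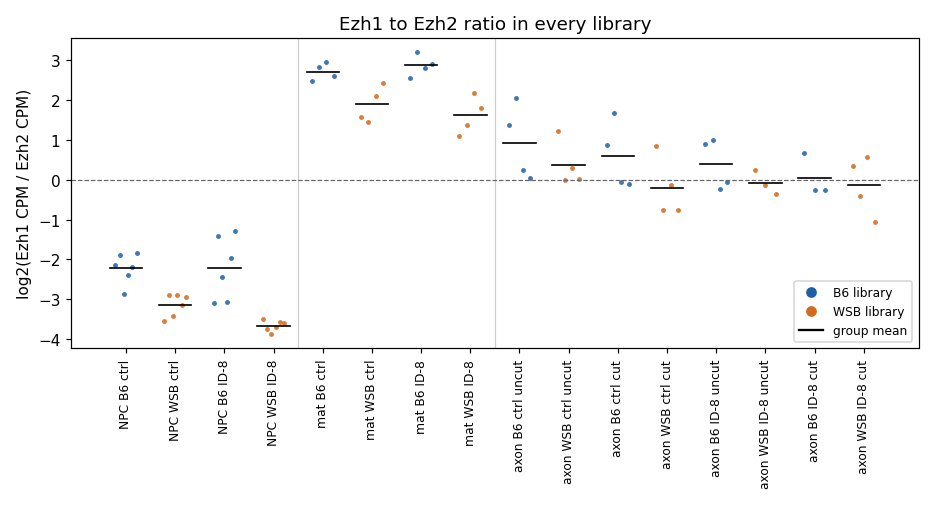
Log2 ratio of Ezh1 to Ezh2 CPM in each library, by group (mat, maturation; ctrl, control); points are libraries, bars are group means, and the dashed line is an equal level. NPC libraries lie below the line, maturation libraries above it and axon libraries on both sides.

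Of the 10 members, 7 were lower and 1 higher in B6 axon cultures than in B6 progenitors, and 7 were lower and 2 higher in WSB. Of all genes tested 57.0% were called in B6 (28.9% lower, 28.1% higher) and 51.1% in WSB (25.0% lower, 26.1% higher). The median log2 difference of the members was -1.40 in B6 and -1.26 in WSB, against 0.00 and 0.02 over all genes tested. None of these member calls was lost in DESeq2, with other scaling or filtering, or when any 1 library was left out.

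Among the core subunits, Suz12 (ENSMUSG00000017548, chr11:79993106-80034123, plus strand) read 142.2, 178.1 and 294.1 CPM in B6 progenitors and 49.5, 39.9, 55.2 and 60.3 in B6 axon cultures. It read 134.3, 130.9 and 121.0 CPM in WSB progenitors and 46.8, 52.5 and 49.8 in WSB axon cultures. The groups did not overlap, and the log2 differences were -1.98 ± 0.19 in B6 (adjusted p = 1.26e-09) and -1.33 ± 0.21 in WSB (adjusted p = 4.17e-06). Eed (ENSMUSG00000030619, chr7:89954654-89980983, minus strand) was lower by -1.55 ± 0.22 and -1.48 ± 0.24 on that scale. Rbbp4 (ENSMUSG00000057236, chr4:129307100-129335370, minus strand), a histone chaperone that also serves other complexes, differed by -1.25 ± 0.16 and -1.18 ± 0.17. Rbbp4 was the most abundant core subunit per length in each control group, with 49.3 CPM per kb in B6 progenitors and 20.8 in B6 axon cultures, where Suz12 had 36.1 and 10.4 and Eed 17.1 and 6.16.

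The accessory proteins split. Jarid2 (ENSMUSG00000038518, chr13:44729474-44921643, plus strand), a relative of histone demethylases without their activity, read 335.0, 347.9 and 389.7 CPM in B6 progenitors and 58.9, 56.5, 51.0 and 50.1 in B6 axon cultures. In WSB it read 356.3, 363.8 and 300.6 against 61.4, 50.2 and 46.2. Here the groups lay far apart with little spread, at log2 differences of -2.68 ± 0.19 (adjusted p = 4.26e-12) and -2.65 ± 0.21 (adjusted p = 3.79e-11). Its partner Aebp2 (ENSMUSG00000030232, chr6:140622663-140678472, plus strand), a zinc finger protein, differed less, by -0.86 ± 0.17 (adjusted p = 9.01e-05) and -0.94 ± 0.19 (adjusted p = 0.000112).

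The Polycomb-like proteins, which bind unmethylated CpG-rich DNA, went 3 ways. Mtf2 (ENSMUSG00000029267, chr5:108065674-108109004, plus strand) read 142.8, 146.1 and 175.6 CPM in B6 progenitors and 29.9, 21.4, 25.1 and 26.8 in axon cultures, and in WSB 101.5, 119.9 and 112.1 against 29.6, 20.2 and 20.0. It was lower by -2.55 ± 0.20 in B6 (adjusted p = 4.75e-11) and -2.21 ± 0.22 in WSB (adjusted p = 3.39e-09). Phf1 (ENSMUSG00000024193, chr17:26933052-26937908, plus strand) went the other way, from 15.1, 12.0 and 10.2 CPM to 25.7, 29.8, 23.8 and 28.9 in B6, and from 15.5, 17.7 and 14.1 to 25.2, 23.4 and 26.2 in WSB. It rose by 1.17 ± 0.17 (adjusted p = 1.29e-06) and 0.70 ± 0.18 (adjusted p = 0.00156) and was the only member higher in both strains. Of 50-base windows of Phf1 transcripts 28.3% also match genes on the opposite strand, chiefly Cuta, and the strand setting of the counting is not given in the sources used here. Cuta itself read 14.3 ± 3.42 CPM (SD, n = 6) in control B6 progenitors and 12.0 ± 1.22 (n = 4) in uncut B6 axon cultures, and 13.4 ± 2.97 and 13.3 ± 1.11 in WSB.

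Phf19 (ENSMUSG00000026873, chr2:34893757-34914026, minus strand) was the 1 member whose stage difference itself differed between the strains. In B6 progenitors it read 9.5, 12.8 and 17.0 CPM and in B6 axon cultures 11.2, 4.57, 14.7 and 15.1, groups that overlap. In WSB progenitors it read 1.29, 1.38 and 2.69 CPM and in WSB axon cultures 8.21, 19.3 and 13.7, groups that do not. The log2 difference was -0.19 ± 0.52 in B6 (adjusted p = 0.776) and 3.01 ± 0.61 in WSB (adjusted p = 0.000156), and the test of their difference gave 3.19 ± 0.78 (adjusted p = 0.027), in a comparison that called 2.10% of all genes (1.45% higher). That last call was lost when any of 6 single libraries was left out, with values of 2.87 to 3.21 and adjusted p-values of 0.0501 to 0.0996. These were WSB NPC replicates 4 and 5, B6 NPC replicate 6, uncut B6 axon replicate 2 and uncut WSB axon replicates 2 and 3.

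**Figure D3:**
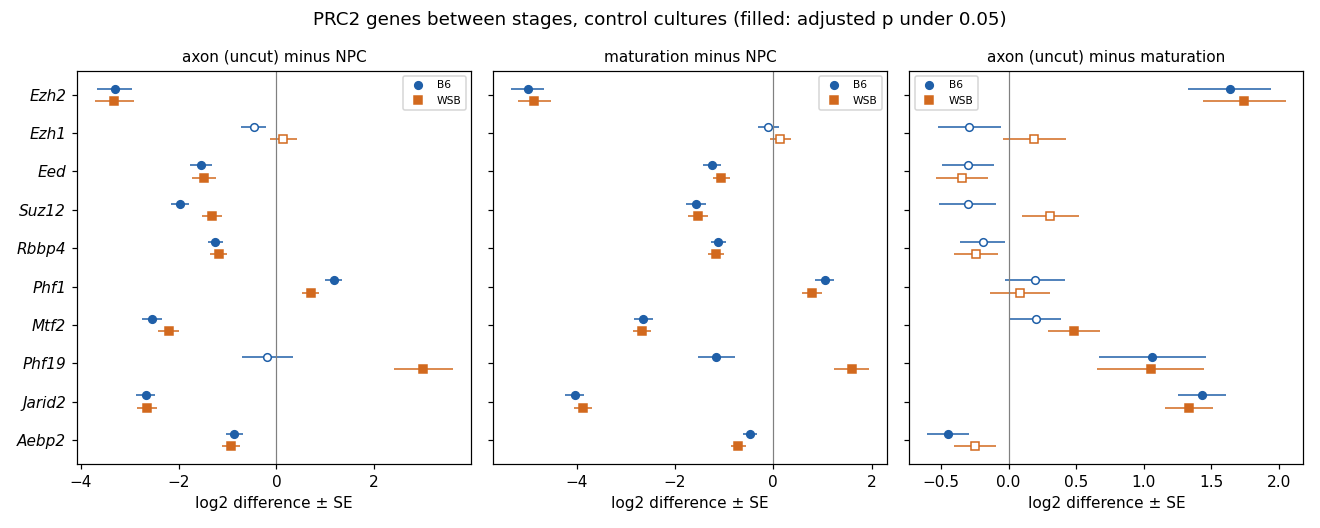
Log2 difference between stages for each PRC2 gene in control cultures (points, with SE as bars) in B6 (blue circles) and WSB (orange squares). Filled points have an edgeR adjusted p under 0.05. In the first 2 panels Phf19 is the 1 gene whose filled WSB point lies right of 0 while its B6 point lies left of it, and Phf1 lies right of 0 in both strains.

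Other chromatin genes were counted beside the members, on lists from textbook knowledge. Of 4 tested genes that encode further PRC2 subunits or partners (Rbbp7, Epop, Lcor and Lcorl) all 4 were lower in axon cultures than in progenitors in each strain. Lcor, a PRC2 partner, differed by -2.30 ± 0.26 in B6 and -2.91 ± 0.29 in WSB. Of 23 genes of PRC1, the complex that ubiquitinates histone H2A, 15 were lower and 4 higher in B6, and 14 lower and 2 higher in WSB. Cbx2, a chromodomain subunit that reads the mark of PRC2, differed by -3.02 ± 0.21 and -3.24 ± 0.24. Its relative Cbx6 was higher by 1.81 ± 0.16 and 1.37 ± 0.17. Of 6 genes for H3K27 demethylases and the H2A deubiquitinase 4 were lower in B6 and 2 in WSB, with Kdm6a, an H3K27 demethylase, at -1.46 ± 0.12 and -1.06 ± 0.13. Of 11 genes of the trithorax methyltransferase complexes, which counteract Polycomb, 7 were lower in B6 and 6 in WSB, and none was called higher. These counts stand beside the 57.0% and 51.1% of all genes given above.

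Of 26 textbook target genes of PRC2, 25 were tested. In axon cultures 7 were lower and 2 higher than in progenitors in B6, and 9 were lower and 2 higher in WSB. Their median log2 difference was -0.32 in B6 and -1.82 in WSB. Their summed level was 266.5 to 399.5 CPM in control B6 progenitors and 198.0 to 458.5 in uncut B6 axon cultures, ranges that overlap. In uncut WSB axon cultures it spread from 79.9 to 431.2 CPM, and Hoxc9 and Hoxd10 were at 0 in that group.

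A list of 18 proliferation genes went the same way as the members that were called lower. All 18 were lower in axon cultures than in progenitors in each strain, with medians of -2.43 and -2.61 on the log2 scale. Their summed level was 1787.4 to 4218.1 CPM in control progenitors, 294.7 to 765.2 in uncut axon cultures and 92.8 to 179.8 at maturation, and none was at 0. The 6 pluripotency markers were lower in B6 axon cultures (6 of 6) and in WSB (5 of 6), and summed to 384.9 to 1037.0 CPM in B6 progenitors, 34.6 to 66.3 in WSB progenitors and 3.08 to 20.6 in uncut axon cultures, with Pou5f1 and Dppa5a at 0 in uncut WSB axon cultures. Of 6 astrocyte markers 5 were higher in each strain. The part of these lists in the members' differences was not tested.

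At maturation Ezh2 and Jarid2 stood lower still. Control B6 maturation cultures held 6.27, 4.63, 5.24 and 6.64 CPM of Ezh2 and control WSB cultures 8.55, 9.43, 7.13 and 5.53, against 145.5 to 224.1 (median 171.8) and 183.9 to 253.1 (median 209.4) in the 6 progenitor cultures of each strain. The log2 differences, maturation minus NPC, were -4.99 ± 0.34 (adjusted p = 3.32e-19) and -4.86 ± 0.34 (adjusted p = 6.08e-19). For Jarid2 the maturation cultures held 19.1, 18.3, 21.0 and 19.8 CPM in B6 and 19.2, 18.9, 24.3 and 24.9 in WSB, against 269.7 to 389.7 and 228.8 to 363.8 in progenitors. Neither gene's groups came near each other, and the differences for Jarid2 were -4.03 ± 0.19 (adjusted p = 1.47e-25) and -3.87 ± 0.19 (adjusted p = 4.04e-25).

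In all, 8 of the 10 members were lower and 1 higher at maturation than in progenitors in B6, and 7 were lower and 2 higher in WSB, beside 66.0% of all genes called in B6 (32.5% lower, 33.5% higher) and 66.8% in WSB (31.5% lower, 35.3% higher). Mtf2 differed by -2.64 ± 0.19 and -2.67 ± 0.19, Suz12 by -1.57 ± 0.20 and -1.53 ± 0.20, Eed by -1.24 ± 0.18 and -1.05 ± 0.18, and Rbbp4 by -1.12 ± 0.16 and -1.16 ± 0.16. Aebp2 had the least of the called differences, -0.47 ± 0.14 in B6 and -0.71 ± 0.15 in WSB. Phf1 rose by 1.04 ± 0.20 and 0.79 ± 0.20. Cuta, which overlaps Phf1 on the opposite strand, read 17.2 ± 2.56 CPM (SD, n = 4) at B6 maturation and 14.3 ± 3.42 (n = 6) in B6 progenitors. In WSB controls Cuta read 21.4 ± 2.7 and 13.4 ± 2.97 CPM. Its part in the Phf1 difference was not tested. Ezh1 was again not called, at -0.10 ± 0.21 (adjusted p = 0.684) and 0.15 ± 0.21 (adjusted p = 0.556). All 16 maturation libraries came from a library block that they share with 4 WSB axon libraries alone. The batch column of the deposited table sets those 4 apart and gives maturation a batch of its own, so by that column batch and stage cannot be told apart. A term for the library block adjusts for the range of library numbers only. With it, resting on those 4 libraries, Ezh2 differed by -5.89 in B6 and -5.76 in WSB, and every call but that of Phf19 in B6 remained.

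Phf19 took opposite directions at maturation in the 2 strains. It read 4.6, 4.89, 5.6 and 5.77 CPM in B6 maturation cultures against 8.98 to 17.0 (median 10.5) in B6 progenitors, and 7.26, 7.2, 4.91 and 4.6 against 1.29 to 2.69 (median 1.65) in WSB. Neither pair of groups overlapped, with the B6 maturation cultures below and the WSB maturation cultures above their progenitors. The log2 differences were -1.16 ± 0.37 (adjusted p = 0.00532) and 1.59 ± 0.36 (adjusted p = 0.000105). Their difference was 2.75 ± 0.52 (adjusted p = 0.000274), where 10.8% of all genes were called (6.48% higher). This call held in each alternative run, but none of those runs left out an NPC library. With the library block as a term, which treats those 4 axon libraries and the maturation libraries as 1 batch, the B6 difference of Phf19 was -0.55 (adjusted p = 0.334), so the B6 decrease is not called there.

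Between the 2 later stages, Ezh2 was higher in uncut axon than in maturation cultures by 1.64 ± 0.31 in B6 (adjusted p = 2.3e-05) and 1.74 ± 0.31 in WSB (adjusted p = 8.59e-06). Jarid2 was higher by 1.43 ± 0.18 and 1.33 ± 0.18. In this comparison 3 members were higher and 1 lower in B6 and 4 were higher in WSB, beside 38.3% of all genes in B6 (19.7% higher, 18.5% lower) and 38.9% in WSB (20.1% higher). Phf19 (1.06 ± 0.40 and 1.05 ± 0.40), Aebp2 in B6 (-0.45 ± 0.16, adjusted p = 0.0196) and Mtf2 in WSB (0.48 ± 0.19, adjusted p = 0.0381) were called too, but each lost its call when certain single libraries were left out (adjusted p-values of up to 0.0677 and 0.148 for Phf19 in B6 and WSB, 0.113 for Aebp2 and 0.121 for Mtf2). Without uncut B6 axon replicate 4 the B6 count was 2, and without WSB maturation replicate 4 the WSB count was 2. With the library block as a term, under the same assumption, none of these 3 genes was called, at 0.42 and 0.53 for Phf19, -0.47 for Aebp2 and 0.46 for Mtf2, and Rbbp4 was called lower (-0.71 in B6, -0.65 in WSB). Of the 18 proliferation genes 14 were higher in axon than in maturation cultures in each strain.

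Among the axon cultures, Ezh2 went with the culture name in the deposited table. The 7 B6 libraries of the cultures r13 and r1313_8d held 8.33 to 17.6 CPM, and the 8 of the cultures 2 and 3 held 26.8 to 34.0. The same split parted the summed proliferation level, at 294.7 to 455.0 CPM and 708.9 to 882.1, and Rbbp4, at 144.3 to 174.4 CPM and 203.2 to 249.7. In WSB the culture AD 11_3, from another library block, held the highest Ezh2 of each of its 4 groups, 32.7 to 42.5 CPM, with a proliferation level of 264.6 to 559.1 and the lowest Rbbp4 of each, 125.5 to 127.5. These ranges are a description of libraries that share a culture, with no test.

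**Figure D4:**
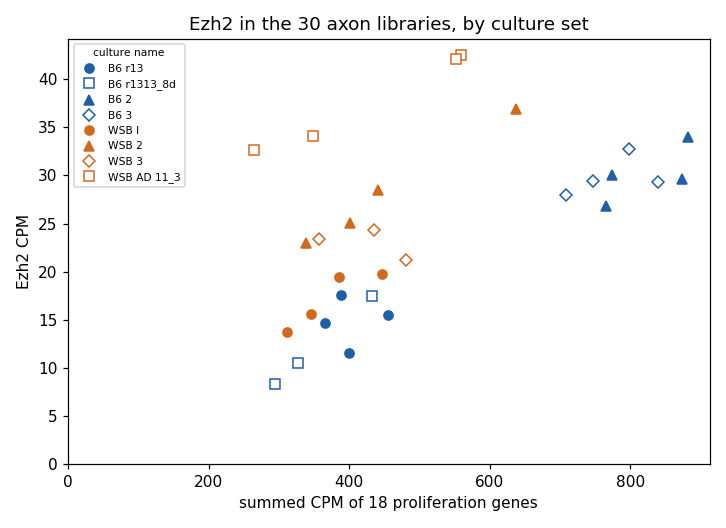
Ezh2 CPM against the summed CPM of 18 proliferation genes in the 30 axon libraries; each point is a library, with colour for strain and symbol for the culture name. The library labelled WSB ID-8 cut replicate 3 is drawn as labelled. The B6 cultures r13 and r1313_8d lie low on both axes and the B6 cultures 2 and 3 high on both, while the WSB culture AD 11_3 has high Ezh2 at 264.6 to 559.1 CPM of proliferation genes.

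More members were called between the strains at the NPC stage, with 6 libraries a group, than later. In control progenitors 6 members were lower and 1 higher in WSB than in B6, beside 45.0% of all genes called (25.0% lower, 20.0% higher), with a median member difference of -0.40 on the log2 scale against -0.00 over all genes. Phf19 read 8.98 to 17.0 CPM (median 10.5) in B6 and 1.29 to 2.69 (median 1.65) in WSB, and the groups lay far apart. Its difference was -2.54 ± 0.21 (adjusted p = 2.4e-09), a 6.11-fold lower mean. Under ID-8 it was -2.57 ± 0.21 (adjusted p = 1.57e-09), at 8.48 to 14.2 against 1.48 to 2.19 CPM.

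Aebp2 was the 1 member called lower in WSB at all 3 stages. In progenitors it read 81.5 to 132.8 CPM (median 103.6) in B6 and 53.6 to 75.5 (median 63.6) in WSB, a difference of -0.62 ± 0.11 (adjusted p = 0.000113). At maturation it read 72.2, 77.3, 73.7 and 77.5 in B6 and 37.9, 41.4, 43.5 and 43.0 in WSB (-0.86 ± 0.13, adjusted p = 0.000307). In uncut axon cultures it read 62.6, 45.5, 57.3 and 62.8 against 38.7, 32.0, 29.4 and 33.0 (-0.66 ± 0.17, adjusted p = 0.0122), and in cut ones the difference was -0.73 ± 0.17 (adjusted p = 0.0059). The strains did not overlap in any of these comparisons of control cultures, although the uncut axon call was lost without WSB replicate 3 (-0.56, adjusted p = 0.0611). Aebp2 shares 0.36% of its 50-base windows with other genes.

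The other strain differences in progenitors were smaller. Ezh1 (-0.65 ± 0.24, adjusted p = 0.0338) read 30.9 to 61.3 CPM in B6 and 15.7 to 29.3 in WSB. Suz12 (-0.50 ± 0.20, adjusted p = 0.0424), Eed (-0.44 ± 0.12, adjusted p = 0.00472) and Mtf2 (-0.36 ± 0.09, adjusted p = 0.00202) were also lower in WSB, and Ezh2 was higher (0.29 ± 0.11, adjusted p = 0.0382). Phf1, Rbbp4 and Jarid2 were not called (0.26 ± 0.14, 0.19 ± 0.08 and -0.01 ± 0.11). B6 control replicate 6 stood apart in Ezh1, Eed and Suz12, and without it Ezh1 (-0.51, adjusted p = 0.107) and Suz12 (-0.34, adjusted p = 0.159) were no longer called, which left 5 members. Suz12 was also not called without a filter on low counts (adjusted p = 0.0637) or without the library block (adjusted p = 0.0548). Within the 2 library blocks alone, with 3 libraries a group, 3 and 2 members were called.

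The pluripotency markers differed in the same comparison, with 6 of 6 lower in WSB (384.9 to 1037.0 CPM summed in B6, 34.6 to 66.3 in WSB), as did 11 of 18 proliferation genes (2293.9 to 4218.1 and 1787.4 to 3450.4 CPM). Their part in the members' differences was not tested. Under ID-8 the strain comparison called 7 members lower and 2 higher in WSB, beside 66.7% of all genes (34.0% lower, 32.7% higher). Ezh1 (-1.27 ± 0.24) and Suz12 (-1.13 ± 0.20) were lower, and Jarid2 (-0.25 ± 0.11, adjusted p = 0.0407) and Phf1 (0.56 ± 0.14) were added to the calls made in control cultures. Jarid2 lost its call without a filter on low counts (adjusted p = 0.0726), without the library block (adjusted p = 0.0567) and in the first block alone (adjusted p = 0.342). Phf1 (adjusted p = 0.0698) lost its call in the first block alone, and Ezh2 in either block alone (adjusted p = 0.0951 and 0.158).

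**Figure D5:**
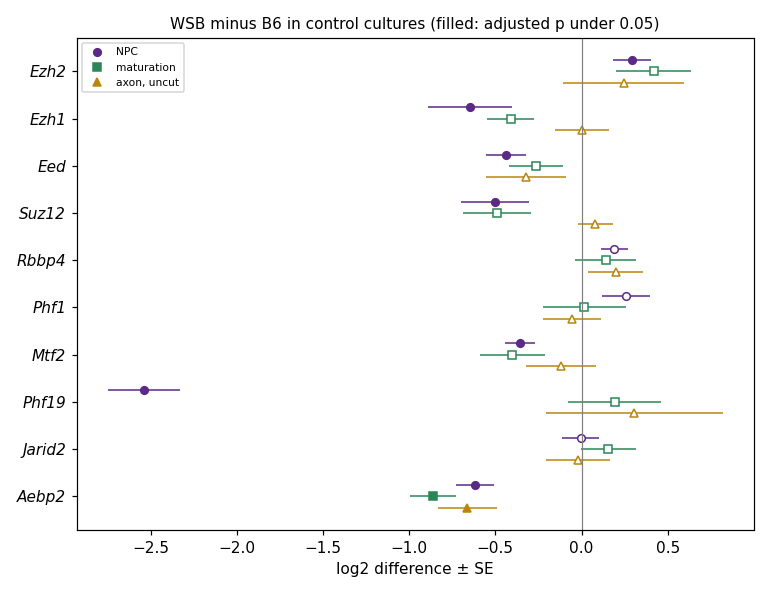
Log2 difference between WSB and B6 control cultures (points, with SE as bars) for each PRC2 gene at the NPC stage (circles), at maturation (squares) and in uncut axon cultures (triangles). Filled points have an edgeR adjusted p under 0.05; Aebp2 is filled and left of 0 at all 3 stages, and Phf19 lies at -2.54 at the NPC stage and right of 0 at the others.

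Fewer members were called between the strains at the later stages, where groups held 4 libraries. In the edgeR fit without a culture block control maturation cultures differed in Aebp2 (1 of 10, beside 14.8% of all genes and 7.39% called lower). Ezh1 read 34.7, 32.9, 40.3 and 40.0 CPM in B6 and 25.5, 25.8, 30.4 and 29.8 in WSB there, which do not overlap, at -0.41 ± 0.14 (adjusted p = 0.0536), and DESeq2 called it (adjusted p = 0.0266). With the neuron and exp1012 cultures as a block, edgeR called Ezh1 (-0.41, adjusted p = 0.00237) and Suz12 (-0.49, adjusted p = 0.0293), among 4608 of 16954 genes. Under ID-8 at maturation, without that block, 4 members were called beside 17.3% of all genes (9.28% higher, 7.97% lower): Phf19 (1.71 ± 0.28, adjusted p = 0.000486) and Ezh2 (0.82 ± 0.22, adjusted p = 0.0154) were higher in WSB, and Aebp2 (-0.78 ± 0.13) and Ezh1 (-0.44 ± 0.14, adjusted p = 0.0357) lower. Ezh1 was not called without a filter on low counts (adjusted p = 0.0632) or without any 1 of WSB ID-8 replicates 1, 2 and 3 and B6 ID-8 replicates 3 and 4 (adjusted p = 0.0567 to 0.115). Ezh2 was not called without WSB ID-8 replicate 1 (adjusted p = 0.0527), which left 2 members. In the same comparison 7 of 18 proliferation genes and 5 of 6 fibroblast genes were higher in WSB. The proliferation genes summed to 107.8 to 127.5 CPM in B6 and 96.1 to 242.9 in WSB, and the fibroblast genes to 374.3 to 602.1 and 804.4 to 2682.1, with none at 0. Their part in the members' differences was not tested. In axon cultures 1 member was called uncut and 2 cut, beside 13.2% and 16.2% of all genes (7.56% and 8.78% lower), the second being Eed in cut cultures (-0.66 ± 0.23, adjusted p = 0.0498). Eed lost that call when any of 7 single libraries of the 2 groups was left out, among them B6 cut replicate 4 (-0.46, adjusted p = 0.204), and without the library labelled WSB ID-8 cut replicate 3 (-0.63, adjusted p = 0.0538).

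The members called between ID-8 and control cultures are given beside the share of all genes called. In B6 progenitors 2 were higher and 1 lower, beside 40.4% of all genes (18.4% higher, 22.0% lower). Eed read 56.1 to 87.1 CPM (median 62.2) in control and 69.7 to 113.4 (median 86.2) with ID-8, and rose by 0.50 ± 0.12 (adjusted p = 0.00209). Suz12 read 141.9 to 294.1 (median 156.9) and 143.8 to 396.3 (median 239.8), and rose by 0.64 ± 0.20 (adjusted p = 0.0128). Phf1 read 7.85 to 15.1 (median 10.8) and 3.94 to 9.48 (median 6.54), with a log2 difference of -0.75 ± 0.14 (adjusted p = 0.000367). The ranges of all 3 overlap between control and ID-8 cultures. Suz12 lost its call in either library block alone (adjusted p = 0.218 and 0.0694), Eed in the first (adjusted p = 0.173) and Phf1 in the second (adjusted p = 0.0642). With the replicate numbers of the first library block as a replicate block, Jarid2 was called as well (0.24 ± 0.09, adjusted p = 0.0411), where 42.8% of all genes were called. With each culture set as a block, chosen after the data were seen, Rbbp4 was called (0.17 ± 0.06, adjusted p = 0.0243), where 51.4% of all genes were.

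In the same B6 cultures 11 of 18 proliferation genes, 4 of 6 pluripotency markers and 5 of 6 endoderm markers were higher with ID-8, and 4 of 8 neuronal markers lower. Endoderm markers summed to 22.5 to 41.0 CPM in control and 47.1 to 288.3 with ID-8, and pluripotency markers to 384.9 to 1037.0 and 843.8 to 1961.1. Their part was not tested. Of the 25 tested PRC2 target genes 9 were higher and 3 lower, with Gata6, a transcription factor of endoderm that is also on the endoderm list, at 3.90 ± 0.50 and Hoxa9, a patterning gene, at 5.08 ± 0.65.

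In WSB progenitors only Phf1 was called with ID-8 (-0.44 ± 0.14, adjusted p = 0.0479), beside 9.57% of all genes (4.86% lower), and the call was lost with another scaling, without a filter, without the library block and within either block. Suz12 had a log2 difference near 0 there (0.02 ± 0.20, adjusted p = 0.97). The strains' responses differed by -0.62 ± 0.28 for Suz12 (adjusted p = 0.189), and no member was called in that test, which called 3.19% of all genes. With the culture set as a block the Suz12 difference was -0.61 ± 0.15 (adjusted p = 0.0158), in a fit that called 20.0% of all genes.

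At maturation the edgeR fit without a culture block called no member with ID-8 in B6 or in WSB, beside 17.1% and 5.89% of all genes. It called none in the difference of the responses either (0.460% of all genes). Phf19 read 4.6, 4.89, 5.6 and 5.77 CPM in B6 control and 2.25, 2.25, 3.86 and 3.38 with ID-8, which do not overlap, at -0.79 ± 0.27 (adjusted p = 0.0583), and DESeq2 called it (adjusted p = 0.0298). In WSB it read 7.26, 7.2, 4.91 and 4.6 in control and 9.64, 8.84, 5.36 and 14.4 with ID-8, at 0.73 ± 0.27 (adjusted p = 0.135). For Phf19 the difference of the responses was 1.52 by edgeR (adjusted p = 0.115), and DESeq2 called it (1.5, adjusted p = 0.0124). Without WSB ID-8 replicate 3, the lowest of its group, the edgeR difference in WSB became 0.93 (adjusted p = 0.0456) and the difference of the responses 1.72 (adjusted p = 0.0231). Without B6 ID-8 replicate 3, Phf19 (-0.95, adjusted p = 0.04) and Suz12 (-0.65, adjusted p = 0.0293) were called in B6. With the neuron and exp1012 cultures as a block, edgeR called the same genes in B6, at -0.79 (adjusted p = 0.039) and -0.49 (adjusted p = 0.0283), among 4823 of 16954 genes.

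In the fit without a culture block no member was called by edgeR after axotomy in either strain or treatment. In those comparisons 0 genes (0%) were called in all, and 72 to 1183 of 18106 genes had an unadjusted p under 0.05. DESeq2 called 1 to 17 genes and no member, and 2 to 4 genes without the library labelled WSB ID-8 cut replicate 3. Ezh2 in uncut and cut B6 control cultures of the same name read 11.5 and 15.5, 8.33 and 10.5, 26.8 and 29.6, and 28.0 and 29.3 CPM. In WSB the pairs were 13.7 and 15.6, 25.1 and 36.9, 24.3 and 23.4, and 34.1 and 42.1. The cut culture was thus higher in 4 of 4 B6 pairs and 3 of 4 WSB pairs, with fitted log2 differences of 0.17 ± 0.35 in B6 and 0.22 ± 0.35 in WSB. With the culture set as a block they were 0.21 ± 0.15 (adjusted p = 0.681) and 0.20 ± 0.15 (adjusted p = 0.51), and not called. Suz12 and Ezh1 were lower in the cut culture of 4 of 4 WSB control pairs, and Ezh1 also of 4 of 4 B6 control pairs. Under ID-8 Suz12 was higher in the cut culture of 3 of 3 WSB pairs, and Ezh1 in 2 of 3 pairs of each strain. In B6 control pairs Eed, Rbbp4 and Mtf2 were higher in 4 of 4, and Phf1 and Jarid2 lower in 4 of 4. In WSB control pairs Rbbp4 was higher in 3 of 4, Mtf2 and Phf1 were lower in 3 of 4, and Eed and Jarid2 were higher in 2 and lower in 2. How many of all genes went 1 way in every pair was not counted, so these pair counts are a description. With the culture set as a block the WSB control differences were -0.35 ± 0.09 for Suz12 (adjusted p = 0.119) and -0.39 ± 0.11 for Ezh1 (adjusted p = 0.125). Both were called when the fit omitted the library labelled WSB ID-8 cut replicate 3 (-0.35 and -0.39, adjusted p = 0.049 each, beside 1.51% of all genes).

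ID-8 in axon cultures likewise called 0 genes (0%) and no member by edgeR, with 675 to 1380 genes at an unadjusted p under 0.05. DESeq2 called 12 to 97 genes, Suz12 in uncut WSB cultures among them (-0.42, adjusted p = 0.0202, and 0.0208 without the library labelled WSB ID-8 cut replicate 3, where it called 19 to 113 genes). Cultures of 1 set deviated together, so the fit with culture set as a block is given where it changes a call. It called Suz12 lower with ID-8 in uncut WSB cultures, at 46.8, 52.5, 49.8 and 56.1 CPM in control and 37.8, 36.2 and 36.1 with ID-8, which do not overlap. The difference was -0.45 ± 0.11 without the block (adjusted p = 0.241) and -0.46 ± 0.10 with it (adjusted p = 0.0171), where 3.11% of all genes were called. Leaving out the library labelled WSB ID-8 cut replicate 3, this fit also called Ezh1 (-0.36, adjusted p = 0.0333) and Jarid2 (-0.34, adjusted p = 0.0241) there, beside 11.2% of all genes. In the edgeR fit without a culture block the strains' responses to axotomy or to ID-8 differed for no member and no gene (0%). There 137 and 220 genes had an unadjusted p under 0.05, and DESeq2 called 8 and 10 (2 and 3 without that library). No member was called for either response in any alternative run.

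Genes whose group means followed a member most closely over the 16 groups were named by the correlation of log2 levels among 13023 expressed genes. The points share stages, libraries and depth, so these are descriptions. The mean of 1 group holds the library labelled WSB ID-8 cut replicate 3, and without it the correlations of Igf2bp3, Plod1 and Pqlc2 below were 0.992, 0.888 and 0.892. For Ezh2 they were Igf2bp3 (0.993), Srbd1, Hist1h2ap, Smarcc1 and Acvr2b (0.989), and for Rbbp4 Srsf7 (0.989), Thoc6, Ttll4, Tra2a and Ctbp2 (0.986). For Phf19 they included Flnc, Fam234a, Galnt10 and Plod1 (0.883). Those of Ezh1 followed less closely, Pqlc2 (0.887), Agtrap, Bckdha, Pdgfa and Nfe2l2 (0.845). Among the members Phf1 ran opposite to Suz12 (-0.91) and Eed (-0.88).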

How the data were processed

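The deposited table held expected counts per gene from RSEM, per the submitters' processing notes, which also name Bowtie2, featureCounts, limma and GRCm38 without versions. Of its values 9.318% were not whole. Repeat runs of 6 libraries were summed and sums rounded, which turned 76 sequenced samples into 70 libraries. RSEM divides reads that match several genes, and WSB reads were counted against the B6-derived genome, an effect that was not tested. Of 38924 gene identifiers 1317 had no symbol (0.2652% of counts).

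Groups came from the labels. Differences were tested in edgeR 4.0.16 (R 4.3.3) by its quasi-likelihood test (TMM factors, filterByExpr, robust), adjusted over all genes by Benjamini-Hochberg, with calls at an adjusted p under 0.05. All 10 members passed the filter in each of 31 comparisons. Each stage was fitted alone, the NPC and axon stages with library block as a term. The axon and NPC stages were compared within 1 block, and comparisons with maturation used all 70 libraries. Comparisons that share control libraries are not independent. The sources used here name no molecular identifiers, so reads may not be independent molecules. The tests ran on simulated data first.

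The members and gene lists were chosen with earlier results of these data known. All members are named, and of each list at most the 4 called genes with the smallest p. A gene among the closest followers of Phf19 is not reported here. DESeq2 1.42.0, other scaling, no filter, first runs only, other blocks and leaving out libraries were alternatives.

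Pairing was checked from deviations from group means. Culture sets at the axon stage paired the libraries: in B6 21 of 21 pairs correlated above 0.1, and in WSB 19 of 21, or 19 of 19 without the library labelled ID-8 cut replicate 3, which went against its strain label. Replicate numbers of the first NPC block did so within each strain (3 of 3 pairs each), but over all 4 groups in 14 of 18 pairs.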

Additional observations from a re-analysis of the deposited data

Results flagged for a closer look

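Replicate 6 of the B6 control progenitors was far above the other 5 libraries of its group in 3 members. It held 61.3 CPM of Ezh1 (next highest 39.9), 87.1 CPM of Eed (next 66.6) and 294.1 CPM of Suz12 (next 178.1). Without it 5 members instead of 7 differed between the strains at that stage.

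In axon cultures 3 further libraries stood apart within their group of 4. Replicate 2 of cut WSB controls held 48.3 CPM of Suz12 (next 40.2) and replicate 1 held 29.3 CPM of Phf1 (next 20.4). Replicate 1 of uncut WSB controls held 29.6 CPM of Mtf2 (next 20.2). These are 6 of 154 sets of values examined, and chance alone marks about 1 in 20.

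The stage difference of Phf19 differed between the strains by the test of that difference. It was 3.19 on the log2 scale for axon against NPC (WSB minus B6, adjusted p = 0.027) and 2.75 for maturation against NPC (adjusted p = 0.000274). Both contrasts use NPC control replicates 4 to 6 of each strain and so are not independent. The maturation contrast uses all 6 NPC control libraries of each strain. Over all 6 NPC control libraries of each strain WSB held 1.29 to 2.69 CPM and B6 8.98 to 17.0.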

How the results depend on the processing

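No member's called direction reversed in any alternative run. With 1 library left out, 2468 log2 differences kept their side of the threshold, 35 lost a call and 7 gained one. These runs were not complete for the progenitors. In comparisons within the NPC stage only B6 control replicate 6 was left out, and in those of maturation with NPC no NPC library was. The calls of 8 or 9 members in each comparison of axon or maturation with NPC within a strain held in every alternative that was run, apart from Phf19 in B6 maturation with the library block as a term. Without NPC B6 control replicate 4, Ezh1 was called too between B6 axon cultures and progenitors.

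At the NPC stage the strain comparison called 3 members in the first library block alone and 2 in the second, against 7. ID-8 in B6 called 5 with DESeq2 and 1 in either block, against 3. ID-8 in WSB called 0 with RLE factors, without a filter, without the block and in either block, against 1. The difference of responses called 1 with the culture set block, against 0. With the replicate block of the first library block the strain comparison called 7 and ID-8 in B6 called 4, and no other member call changed.

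At maturation the strain comparison called 2 members with DESeq2 and 3 with the culture letters as a block (Ezh1 and Suz12 added), against 1. ID-8 in B6 called 1 with DESeq2 and 2 with the letters (Suz12 and Phf19), against 0, and 0 to 2 with 1 library left out. The letters, which part the neuron from the exp1012 cultures, did not pair all libraries (40 of 48 pairs above 0.1). In B6 controls replicates 1 and 2 held 242.3 and 247.0 CPM of Rbbp4, and replicates 3 and 4 held 147.4 and 161.7. The difference of responses called 1 with DESeq2, against 0, and 0 to 1 with 1 library left out, as did ID-8 in WSB. The strain comparison under ID-8 called 2 to 4 with 1 library left out.

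At the axon stage the strain comparison of cut cultures called 1 with RLE factors, without a filter, with first runs, without the block and in 1 block, against 2, and 1 to 2 with 1 library left out; that of uncut cultures called 0 to 1. ID-8 in uncut WSB cultures called 1 with DESeq2, with all libraries and without the library labelled WSB ID-8 cut replicate 3, 1 with the culture set block and 3 with that block and without that library, against 0, and axotomy in WSB controls 2 with the last. Axon against NPC by strain called 0 to 2, and axon against maturation 2 to 4 in each strain, with 1 library left out.

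Over all genes DESeq2 called 1255 against 551 for the NPC response difference, 1820 against 999 for ID-8 in WSB at maturation and 919 against 399 for axon against NPC by strain. The first library block alone called 4213 genes between strains against 7763, and the second 2794. The culture set block called 221 to 563 genes for the 4 ID-8 comparisons at the axon stage, against 0. TMM-scaled totals moved 7 of 160 group means by more than their SD, and first runs moved 0. Members were not summed with similar genes, since none shares over 1% of its sequence windows on its own strand (at most 0.86%, Rbbp4). Phf19 rests on 1.29 to 2.69 CPM in WSB progenitors.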
